A study of Homo sapiens with 18 samples.

Results

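The small nucleolar RNA host genes, named SNHG and a number, and GAS5 were followed across all 6 groups of an RNA sequencing series on Raji, a human B cell line established from a Burkitt lymphoma. The members are the 29 genes of the deposited count table, out of 60707 read, whose identifier maps to the symbol GAS5 or to SNHG and a number. The groups were GFP low and GFP high cells at 24, 48 and 72 h, with 3 libraries in each group and 18 in all, and every sample carries the same genotype label, Smarca4+/+. The series states that it follows the breakdown of SMARCA4 protein by an auxin-inducible degron, a system in which auxin directs a tagged protein to a ubiquitin ligase. SMARCA4 is the ATPase of the BAF chromatin remodelling complexes. The sources used here do not tell which GFP fraction had lost the protein, by what method cells were sorted into fractions, what started the clock, or whether the line was 1 clone. In 1 library set the columns carry BRG1, another name of SMARCA4, beside GFP. Each difference below is GFP low over GFP high, with no claim on the protein.

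Small nucleolar RNAs (snoRNAs) guide the chemical modification and cutting of ribosomal RNA, with box C/D snoRNAs directing methylation and box H/ACA snoRNAs directing pseudouridine formation, while small Cajal body RNAs (scaRNAs) do the same for spliceosomal RNA. In human cells most of them are cut out of the introns of a host gene, and the spliced host RNA is a separate product. Many host genes start transcription at a run of pyrimidines, the terminal oligopyrimidine (TOP) start that is typical of ribosomal protein genes, and several spliced host RNAs, GAS5 the best known among them, are broken down by nonsense-mediated decay as they are translated. The host RNA level therefore depends on synthesis and on decay, which counts of spliced RNA do not separate.

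Of the 29 members, 28 have a noncoding type in GENCODE release 29; the exception is SNHG32. In the table's coordinates 27 hold at least 1 snoRNA or scaRNA gene on the same strand within their span. None was matched within GAS5 or SNHG28, and the snoRNAs known to lie in GAS5 introns were not analysed here. SNHG14, a long imprinted transcript of the Prader-Willi region, holds 84 of the 135 matched genes. The members' summed exon lengths ran from 278 bases for SNHG25 to 122609 bases for SNHG14, with a median of 4266.

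The RefSeq promoter table (build GRCh38.p14) had an entry for 25 of the 29 members. At 6 of the 25 RefSeq start sites (24%) the first base was a C followed by at least 4 pyrimidines, against 4.07% of the 35116 promoters in the table. These were SNHG4, SNHG5, SNHG12, SNHG18, SNHG19 and SNHG32. By the same definition 14 of the 29 members had at least 1 GENCODE release 29 transcript with such a start, among them GAS5 with 6 of 29 transcripts and SNHG29 with 6 of 30. Transcript starts were not counted for other genes, and a gene with more transcripts has more starts that can match. The windows below run from 25 bases before the RefSeq start to 50 bases from it. They are shown because the printed members, all called lower at 24 h, differ in the annotated first base or in the run of C and T after it. The capitals mark the annotated first base and any unbroken run of C and T after it.

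SNHG4, chr5:139274076-139274150, plus strand: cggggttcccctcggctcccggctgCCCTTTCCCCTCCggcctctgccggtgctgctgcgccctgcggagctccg
SNHG5, chr6:85678684-85678758, minus strand: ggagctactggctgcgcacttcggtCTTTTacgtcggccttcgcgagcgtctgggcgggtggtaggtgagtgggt
SNHG12, chr1:28581824-28581898, minus strand: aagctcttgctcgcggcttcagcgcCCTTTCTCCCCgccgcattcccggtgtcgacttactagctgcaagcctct
SNHG19, chr16:2155309-2155383, minus strand: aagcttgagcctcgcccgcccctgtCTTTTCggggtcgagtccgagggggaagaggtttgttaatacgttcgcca
GAS5, chr1:173868996-173869070, minus strand: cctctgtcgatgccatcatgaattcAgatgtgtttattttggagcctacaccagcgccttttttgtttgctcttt
SNHG1, chr11:62855836-62855910, minus strand: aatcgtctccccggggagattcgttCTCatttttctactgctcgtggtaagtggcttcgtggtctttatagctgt
SNHG29, chr17:16438962-16439036, plus strand: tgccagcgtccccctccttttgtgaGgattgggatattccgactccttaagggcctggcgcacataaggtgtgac

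The run of C and T after the first base was 12 bases long in SNHG4, 10 in SNHG12, 5 in SNHG19, 4 in SNHG5 and 2 in SNHG1, and there was none in GAS5 or SNHG29. The RefSeq start differs from the 5′ end of the gene in the count table by 0 bases for SNHG19, 1 for SNHG4, 68 for SNHG1, 163 for GAS5, 199 for SNHG5, 220 for SNHG29 and 1259 for SNHG12, so the window is 1 annotated start among several. In the 300-base promoters, searched on both strands, the E-box letters CACGTG were found for 2 of the 25 members, SNHG7 and SNHG30 (8%, against 7.26% of all promoters). TATAAA was found for 4 (16%, against 11.5%), and CCAAT for 7 (28%, against 34.6%). These matches describe letters and not binding.

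Libraries held 27257876 to 55419458 counts in genes. Levels are in CPM, counts relative to the library total, scaled by the trimmed mean of M values (TMM). Log2 fold changes carry the SE of the fitted model, and adjusted p is from the quasi-likelihood test of edgeR with Benjamini-Hochberg adjustment over 16474 tested genes, called below 0.05. The biological coefficient of variation was 3.5%, so small differences passed. Separate cultures are not stated for the 3 libraries of a group, so a p-value reflects library spread alone, and that spread may be technical. SMARCA4 mRNA was higher in GFP low cells, by 0.50 ± 0.03, 0.11 ± 0.03 and 0.20 ± 0.03 log2 at 24, 48 and 72 h, which says nothing of the protein. B cell markers summed to 3713 to 4616 CPM in GFP low and 4219 to 4750 CPM in GFP high libraries. T cell markers, of which 7 of 8 were tested, summed to 26.0 to 29.3 CPM in GFP low and 49.8 to 52.8 CPM in GFP high libraries at 24 h. At 48 h they summed to 40.5 to 44.8 CPM in GFP low and 47.1 to 50 CPM in GFP high libraries, and at 72 h to 41.2 to 44.7 CPM in GFP low and 56.3 to 58.9 CPM in GFP high libraries. No T cell marker was at 0 in every library, and their part in the results was not tested. Myeloid and erythroid markers each stayed below 1.02 CPM in sum, with S100A8, FCGR3A and HBA1 at 0, and the 7 epithelial, kidney or fibroblast markers summed to 1.68 to 9.72 CPM. In bulk RNA a lower level cannot be told apart from fewer cells that express the gene.

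The filter on low counts kept 26 members. SNHG18 had 0 counts in every library, and SNHG27 and SNHG28 had at most 1 count in any library. Per kilobase of exon, the highest mean levels over the 18 libraries were 103 CPM per kb for GAS5, which accumulates in growth-arrested cells, and 102 CPM per kb for SNHG29, which hosts box C/D snoRNAs. These neighbours in the order were not separated, since GAS5 spanned 72.4 to 118 CPM per kb and SNHG29 64.8 to 118 CPM per kb. SNHG3 followed with 92.3, SNHG6 with 76.6, SNHG16 with 73.9, SNHG19 with 72.6, SNHG1 with 44.0 and SNHG4 with 43.5 CPM per kb. SNHG20 had 1.5, SNHG31 1.26 and SNHG22, the lowest tested member, 0.564 CPM per kb.

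Together the 29 genes took 0.307% to 0.311% of all counts in GFP low and 0.366% to 0.371% in GFP high libraries at 24 h. At 48 h the share was 0.370% to 0.376% in GFP low and 0.383% to 0.390% in GFP high libraries. At 72 h it was 0.404% to 0.410% in GFP low and 0.373% to 0.380% in GFP high libraries. The GFP low share was thus below that of GFP high at the first 2 times and above it at the last, with no overlap at any time.

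**Figure D1:**
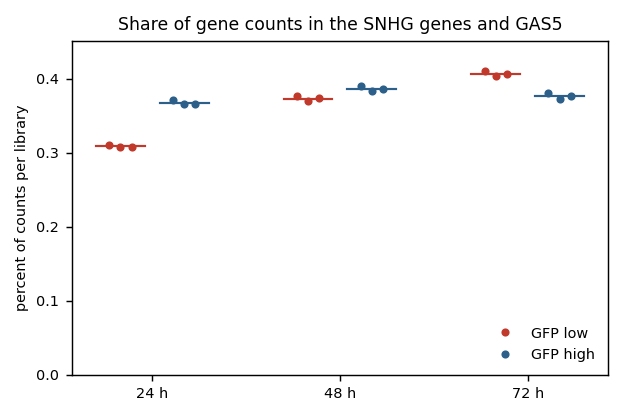
Percent of each library's gene counts that fell in the 29 members, GAS5 included (vertical axis, from 0), by time in hours. There is 1 point per library, GFP low in red left of GFP high in blue, with lines at the means of 3 libraries. GFP low libraries lay at 0.307% to 0.311% at 24 h, below all others, and at 0.404% to 0.410% at 72 h, above all others.

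At 24 h most of the host RNAs were lower in GFP low than in GFP high cells. Of the 26 tested members, 20 fell and 1, SNHG31, rose. Over all tested genes 57.9% were called at this time, 28.5% lower and 29.3% higher. The members' median log2 fold change was -0.22, against 0.03 over all tested genes, and the values ran from -0.79 to 0.47. The groups did not overlap for 20 members lower and 1 higher in GFP low libraries, where 29.8% of all genes lay wholly lower and 32.1% wholly higher. SNHG14, which was not called, lay wholly lower, and SNHG32, which was called, overlapped. With library totals alone as the scale, the median over all genes was 0.16 and that of the members -0.09, and 13 members fell and 3 rose.

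SNHG29 fell most. It had 470, 465 and 465 CPM in GFP low libraries, against 812, 814 and 799 CPM in GFP high libraries, a log2 fold change of -0.79 ± 0.02 (adjusted p = 1.76e-19). The GFP low libraries all lay far below the GFP high libraries. Without SNHG29 the other members still took 0.258% to 0.261% of counts in GFP low and 0.288% to 0.292% in GFP high libraries.

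GAS5 had 362, 360 and 350 CPM in GFP low libraries, against 547, 536 and 524 CPM in GFP high libraries, a log2 fold change of -0.58 ± 0.02 (adjusted p = 3.5e-15). Its reads fell by 33.3% with no overlap between groups. SNHG5, the host of U50 snoRNAs that was first cloned at a chromosome breakpoint of a B cell lymphoma, had 69.7, 71.4 and 65.5 CPM in GFP low libraries, against 103, 108 and 99.9 CPM in GFP high libraries. SNHG1, the host of SNORD22 and its neighbours, had 130, 131 and 129 CPM in GFP low libraries, against 182, 189 and 185 CPM in GFP high libraries. The log2 fold change was -0.59 ± 0.05 for SNHG5 (adjusted p = 2.24e-09) and -0.51 ± 0.03 for SNHG1 (adjusted p = 2.08e-12). In both genes every GFP low library lay below every GFP high library.

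Other members that host a single matched snoRNA or scaRNA also fell by more than 0.4 log2. SNHG6, which hosts SNORD87, had 79.5, 77.7 and 75.9 CPM in GFP low libraries, against 116, 112 and 108 CPM in GFP high libraries (-0.53 ± 0.04, adjusted p = 3.19e-10). SNHG10, which hosts SCARNA13, had 14.8, 15.4 and 14.9 CPM in GFP low libraries, against 21.3, 20.1 and 21.3 CPM in GFP high libraries (-0.48 ± 0.05, adjusted p = 5.34e-08). SNHG30, which hosts SNORD7, had 5.65, 4.78 and 5.7 CPM in GFP low libraries, against 8.94, 7.71 and 8.07 CPM in GFP high libraries (-0.60 ± 0.08, adjusted p = 1.01e-06). The low-level members SNHG25 and SNHG9 had log2 fold changes of -0.54 ± 0.16 and -0.40 ± 0.12. SNHG25, at -0.20, and SNHG9, at -0.07, lost their calls when a trend on gene length was removed (adjusted p = 0.316 and 0.649), where SNHG6 was at -0.23 (adjusted p = 0.000147) and SNHG30 at -0.31 (adjusted p = 0.00245). SNHG9 also lost it without the GFP low library of set 1 (-0.29, adjusted p = 0.0501).

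Smaller falls at 24 h were those of SNHG16 (-0.31 ± 0.02), SNHG19 (-0.29 ± 0.06), SNHG17 (-0.27 ± 0.03), SNHG3 (-0.24 ± 0.02), SNHG7 (-0.20 ± 0.03), SNHG8 and SNHG12 (both -0.16 ± 0.03) and SNHG15 (-0.15 ± 0.03). Of these, SNHG7, SNHG8, SNHG12 and SNHG15 were no longer called with library totals alone, at -0.07, -0.03, -0.03 and -0.02. With the length trend removed SNHG19 was at 0.04 and not called (adjusted p = 0.637), while SNHG17 was at -0.46, SNHG12 at -0.09 and SNHG15 at -0.06. SNHG32 (-0.13 ± 0.05), SNHG26 (-0.10 ± 0.03) and SNHG4 (-0.07 ± 0.02) passed narrowly. When the length trend was removed, SNHG32 was called higher (0.15, adjusted p = 0.0118) and SNHG4 was at -0.01 and not called (adjusted p = 0.788). With library totals alone SNHG4 was called higher (0.06, adjusted p = 0.0285), and SNHG26 and SNHG32 were at 0.03 and 0.00. SNHG32 was not called without the GFP low library of the unnumbered set (-0.12), the GFP high library of set 2 (-0.09) or the GFP low library of set 1 (-0.07). SNHG26 was not called without the GFP low library of set 1 (-0.08), and SNHG4 without that library (-0.05), the GFP high library of the unnumbered set (-0.06) or the GFP low library of set 2 (-0.06).

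SNHG31, which hosts SNORA70I, was the exception, with 4.48, 4.13 and 3.88 CPM in GFP low libraries, against 2.74, 3.22 and 3.01 CPM in GFP high libraries. It rose by 0.47 ± 0.11 log2 (adjusted p = 0.000728), and its libraries did not overlap. SNHG14 (-0.02 ± 0.02), SNHG20 (-0.05 ± 0.07), SNHG22 (-0.06 ± 0.17), SNHG11 (0.01 ± 0.09) and SNHG21 (-0.16 ± 0.15) did not pass the test at 24 h. SNHG14, the longest member, had opposite calls under other settings, 0.11 with library totals alone (adjusted p = 8.13e-06) and -0.47 with the length trend removed (adjusted p = 4.4e-13).

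**Figure D2:**
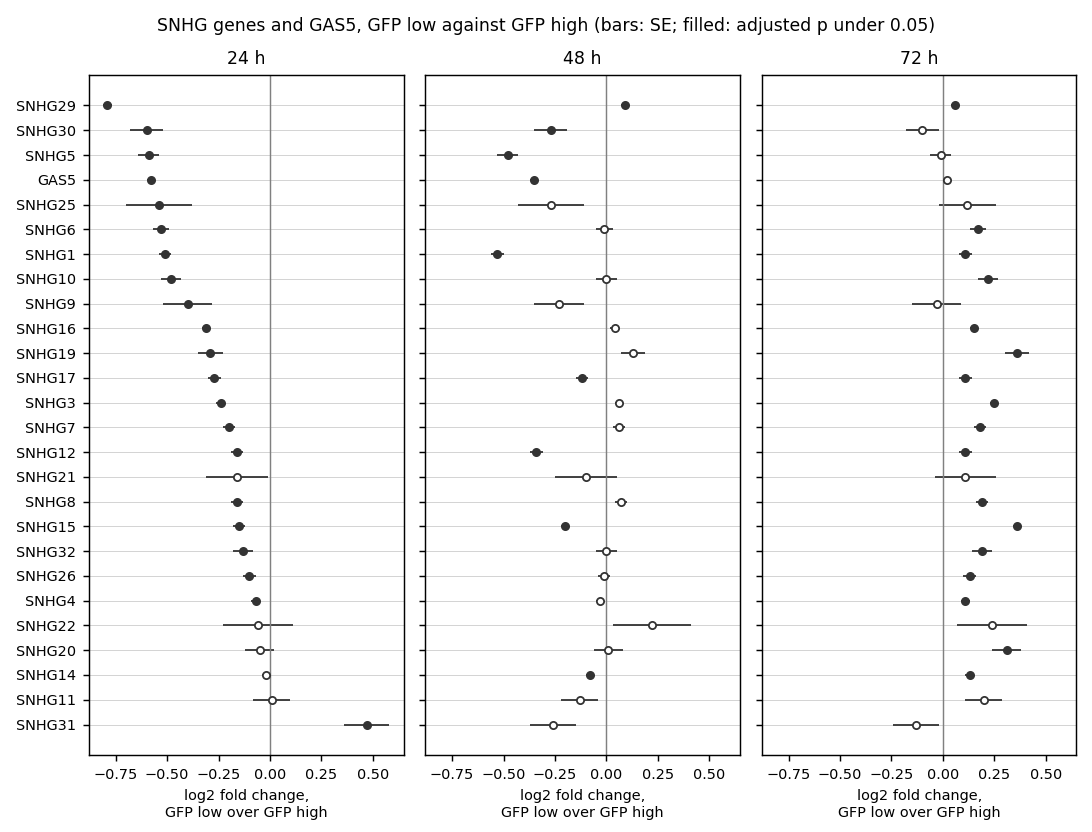
Log2 fold change of GFP low over GFP high (horizontal axis) for the 26 tested members at 24, 48 and 72 h, ordered by the value at 24 h, with bars of 1 SE and filled points for adjusted p under 0.05. Values lay mostly left of 0 at 24 h, where 20 fell and 1 rose, and right of 0 at 72 h, where 17 rose and none fell.

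At 48 h 8 members fell and 1 rose, so that 9 of 26 were called, where 23.8% of all genes were called, 13.2% lower and 10.6% higher. The median was -0.05 for the members and -0.01 for all genes. Groups did not overlap for 9 members lower and 4 higher in GFP low libraries, against 19.9% and 16.9% of all genes. The members called lower were 30.8% of those tested, above the share of all genes, and the 1 called higher was 3.85%, below that share.

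SNHG1 was the lowest at 48 h relative to GFP high cells. It had 148, 153 and 146 CPM in GFP low libraries, against 211, 224 and 209 CPM in GFP high libraries, a log2 fold change of -0.53 ± 0.03 (adjusted p = 1.4e-11). GAS5 had 440, 436 and 419 CPM in GFP low libraries, against 561, 552 and 544 CPM in GFP high libraries (-0.35 ± 0.02, adjusted p = 1.74e-10). SNHG5 had 86.5, 84.7 and 76.9 CPM in GFP low libraries, against 119, 119 and 108 CPM in GFP high libraries (-0.48 ± 0.05, adjusted p = 3.28e-07). For these 3 hosts the groups stayed apart. SNHG12 had 88, 85.6 and 90 CPM in GFP low libraries, against 108, 110 and 115 CPM in GFP high libraries (-0.34 ± 0.03, adjusted p = 6.18e-09). SNHG15, which hosts SNORA9, had 115, 116 and 120 CPM in GFP low libraries, against 133, 134 and 134 CPM in GFP high libraries (-0.20 ± 0.02, adjusted p = 3.79e-06). SNHG12 and SNHG15 fell more at 48 h than at 24 h by estimate, and the change between the times passed for SNHG12 (-0.18 ± 0.04, adjusted p = 0.000659). For SNHG15 it passed with the length trend removed (-0.13, adjusted p = 0.00344) or with library totals alone (-0.14, adjusted p = 0.00293). SNHG17 (-0.12 ± 0.03), SNHG14 (-0.08 ± 0.02) and SNHG30 (-0.27 ± 0.08) fell too. SNHG14 was at -0.19 with the length trend removed. SNHG14 and SNHG30 lost the call without the filter on low counts (adjusted p = 0.0872 and 0.0522), and SNHG30 also without the GFP high library of the unnumbered set (-0.24, adjusted p = 0.054).

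SNHG29, the lowest at 24 h, rose at 48 h. It had 769, 768 and 757 CPM in GFP low libraries, against 719, 726 and 707 CPM in GFP high libraries, a log2 fold change of 0.09 ± 0.02 (adjusted p = 0.000261). The GFP low libraries now all lay above the GFP high libraries. SNHG6 and SNHG10, both below -0.4 log2 at 24 h, were at -0.01 ± 0.04 and 0.00 ± 0.05. With the library set as a block, 5 members rose at 48 h in place of 1, and with library totals alone 6, SNHG7 among them (0.09, adjusted p = 0.0324). Under the block SNHG3 (0.05, adjusted p = 0.00754), SNHG8 (0.07, adjusted p = 0.0303), SNHG16 (0.04, adjusted p = 0.0432) and SNHG19 (0.14, adjusted p = 0.0177) joined SNHG29. SNHG7 (0.06 ± 0.03), SNHG31 (-0.26 ± 0.11), SNHG25 (-0.27 ± 0.16), SNHG9 (-0.23 ± 0.12), SNHG11 (-0.13 ± 0.09), SNHG22 (0.22 ± 0.19), SNHG21 (-0.10 ± 0.15), SNHG4 (-0.03 ± 0.02), SNHG26 (-0.01 ± 0.03), SNHG20 (0.01 ± 0.07) and SNHG32 (0.00 ± 0.05) did not pass. SNHG3 was also called with the length trend removed (0.07, adjusted p = 0.0255) and without the GFP high library of set 2 (0.08, adjusted p = 0.0234), and SNHG16 without the GFP low library of set 2 (0.07, adjusted p = 0.0305).

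At 72 h the direction of 24 h had turned for most host RNAs. Of 26 members 17 rose and 0 fell, where 26.4% of all genes were called, 12.9% higher and 13.5% lower. The number lower in GFP low cells was also 0 at an unadjusted p under 0.05 in edgeR and 0 by DESeq2. The median log2 fold change was 0.13, against 0.00 over all genes, and values ran from -0.13 to 0.36. The groups did not overlap for 17 members, all higher in GFP low libraries, where 19.2% of all genes lay wholly higher and 19.6% wholly lower.

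SNHG15 and SNHG19 were among those that rose most. SNHG15 had 150, 154 and 156 CPM in GFP low libraries, against 119, 118 and 120 CPM in GFP high libraries, a log2 fold change of 0.36 ± 0.02 (adjusted p = 3.25e-10). SNHG19, which hosts SNORD60, had 30.6, 32.5 and 33.9 CPM in GFP low libraries, against 24.7, 25.2 and 25.7 CPM in GFP high libraries (0.36 ± 0.06, adjusted p = 8e-05; 0.25 with the length trend removed). SNHG20, which hosts SCARNA16, had 9.23, 9.19 and 10.3 CPM in GFP low libraries, against 8.21, 7.87 and 7.2 CPM in GFP high libraries (0.31 ± 0.07, adjusted p = 0.0026). SNHG20 passed at this time and at neither earlier time. SNHG3 had 423, 426 and 429 CPM in GFP low libraries, against 354, 364 and 359 CPM in GFP high libraries (0.25 ± 0.02, adjusted p = 9.95e-09). SNHG10 had 27.2, 24.9 and 27.9 CPM in GFP low libraries, against 23, 22.7 and 23.1 CPM in GFP high libraries (0.22 ± 0.05, adjusted p = 0.0015). SNHG1, which was lower at both earlier times, had 197, 194 and 184 CPM in GFP low libraries, against 181, 178 and 173 CPM in GFP high libraries (0.11 ± 0.03, adjusted p = 0.00609). In each of these genes the lowest GFP low library lay above the highest GFP high library.

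The other risers at 72 h were SNHG8 and SNHG32 (0.19), SNHG7 (0.18), SNHG6 (0.17), SNHG16 (0.15), SNHG14 and SNHG26 (0.13), SNHG4, SNHG12 and SNHG17 (0.11) and SNHG29 (0.06 ± 0.02). SNHG29 had 842, 846 and 833 CPM in GFP low libraries, against 805, 818 and 794 CPM in GFP high libraries. SNHG14 was at 0.29 with the length trend removed. SNHG29 lost its call with that trend removed (0.04, adjusted p = 0.139), without the filter on low counts (adjusted p = 0.0933) and without the GFP high library of set 2 (0.05, adjusted p = 0.0523), and SNHG32 without the GFP low library of set 2 (0.17, adjusted p = 0.0659). GAS5, with 570, 570 and 549 CPM in GFP low libraries, against 560, 555 and 544 CPM in GFP high libraries, was at 0.02 ± 0.02, and SNHG5 at -0.01 ± 0.05. Their groups overlapped. SNHG30 (-0.10 ± 0.08), SNHG31 (-0.13 ± 0.11), SNHG9 (-0.03 ± 0.12), SNHG25 (0.12 ± 0.14), SNHG21 (0.11 ± 0.15) and SNHG22 (0.24 ± 0.17) did not pass. SNHG11 did not pass (0.20 ± 0.09) but was called in the blocked fit (0.20, adjusted p = 0.00864), without the GFP low library of the unnumbered set (0.27, adjusted p = 0.0436) and without the GFP high library of set 2 (0.28, adjusted p = 0.0398).

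**Figure D3:**
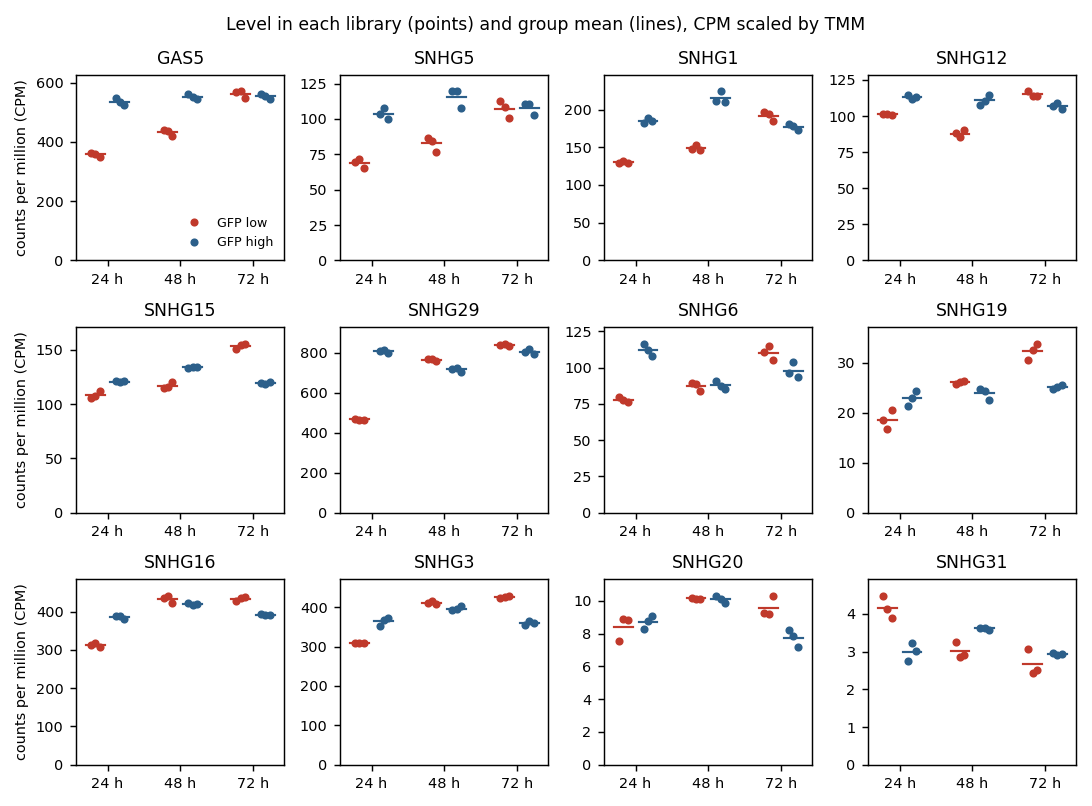
CPM (vertical axes, from 0) of 12 members in each of the 18 libraries by time, with GFP low in red left of GFP high in blue and lines at the means of 3 libraries. GAS5, SNHG5 and SNHG1 stayed below GFP high cells at 24 and 48 h, while SNHG29 was at 465 to 470 CPM in GFP low cells at 24 h and at 757 to 769 CPM at 48 h.

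Over the 3 times the calls fell into a few patterns. In 10 members (SNHG3, SNHG4, SNHG6, SNHG7, SNHG8, SNHG10, SNHG16, SNHG19, SNHG26 and SNHG32) the RNA fell at 24 h, did not pass at 48 h and rose at 72 h. In 4 (SNHG1, SNHG12, SNHG15 and SNHG17) it fell at 24 and 48 h and rose at 72 h, and in 3 (GAS5, SNHG5 and SNHG30) it fell at 24 and 48 h and did not pass at 72 h. SNHG29 fell at 24 h and rose at both later times, SNHG9 and SNHG25 fell at 24 h alone, SNHG31 rose at 24 h alone, SNHG14 fell at 48 h and rose at 72 h, SNHG20 rose at 72 h alone, and SNHG11, SNHG21 and SNHG22 passed at no time. Of the members with a pyrimidine start at the RefSeq site, SNHG4, SNHG19 and SNHG32 were in the first pattern. SNHG12 was in the second and SNHG5 in the third, and SNHG18 did not pass the filter. Whether the start goes with a pattern was not tested.

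The change of the difference between times was tested in the same model. From 24 to 48 h it rose in 11 members and fell in 2, where 43.5% of all genes were called, 22.1% higher and 21.4% lower. From 24 to 72 h it rose in 21 members and fell in 1, SNHG31, where 41.9% of all genes were called, 22.2% higher and 19.6% lower. The 72 h and 24 h values share no library, but the changes to 48 h and to 72 h share the 24 h libraries. The change to 72 h was 0.85 ± 0.02 for SNHG29, 0.70 ± 0.07 for SNHG10, 0.70 ± 0.06 for SNHG6, 0.63 ± 0.04 for SNHG1 and 0.61 ± 0.03 for GAS5, and -0.60 ± 0.16 for SNHG31. GAS5 (0.23 ± 0.03) changed by 48 h as well, whereas the change to 48 h was -0.02 ± 0.04 for SNHG1, 0.11 ± 0.07 for SNHG5 and -0.04 ± 0.04 for SNHG15, which did not pass. With the library set as a block, the change to 48 h was called for SNHG5 (0.11, adjusted p = 0.00675), SNHG26 (0.10, adjusted p = 0.0142), SNHG32 (0.13, adjusted p = 0.0448) and SNHG14 (-0.06, adjusted p = 0.0206), and that to 72 h for SNHG9 (0.37, adjusted p = 0.028). The change to 48 h of SNHG14 was -0.16 with library totals alone (adjusted p = 1.11e-05) but turned to 0.28 with the length trend removed (adjusted p = 1.43e-06), and to 0.28 with block and length trend together (adjusted p = 4.25e-14). That of SNHG32 turned to -0.16 with both together (adjusted p = 0.013). With the length trend removed the change to 48 h was called for SNHG5 (0.31, adjusted p = 0.00119) and SNHG26 (0.14, adjusted p = 0.0171), and with library totals alone for SNHG1 (-0.11, adjusted p = 0.0461), while the change of SNHG6 to 72 h was 0.38 with the length trend removed.

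Within GFP low cells the host RNAs were higher at the later times. At 48 h against 24 h, 17 of 26 members rose and 3 fell, where 50.8% of all genes were called, 25.7% higher and 25.1% lower. At 72 h against 24 h, 19 rose and 1 fell, where 57.1% of all genes were called, 29.6% higher and 27.5% lower. The 72 h libraries lay wholly above the 24 h libraries for 19 members, against 31.3% of all genes. The median at 72 h was 0.40 for members and 0.01 for all genes. These comparisons share the 24 h libraries with the difference at 24 h given above. SNHG29 averaged 467 ± 3.06 CPM at 24 h, 765 ± 6.45 CPM at 48 h and 840.4 ± 6.82 CPM at 72 h in GFP low cells (SD, n = 3), while GAS5 averaged 357 ± 6.09, 432 ± 11.2 and 563 ± 12.3 CPM. The 48 h mean of SNHG29 lay nearer to its mean at 72 h, and that of GAS5 nearer to its mean at 24 h. SNHG25 (0.94 ± 0.15), SNHG29 (0.85 ± 0.02) and SNHG10 (0.83 ± 0.05) rose at 72 h. SNHG25 was at 0.53 with the length trend removed, below SNHG29 (0.91), SNHG10 (0.84), SNHG5 (0.81), SNHG14 (0.69) and GAS5 (0.63). SNHG12 fell at 48 h (-0.21 ± 0.03) and rose at 72 h (0.18 ± 0.03), SNHG31 fell at both times (-0.46 ± 0.11 and -0.63 ± 0.11), and SNHG22 fell at 48 h (-0.44 ± 0.17). The fall of SNHG22 was not called by DESeq2 (adjusted p = 0.107), nor without the 24 h library of set 1 (-0.34) or of the unnumbered set (-0.44), or the 48 h library of set 1 (-0.36) or of set 2 (-0.37). With the library set as a block SNHG8 (0.07) and SNHG32 (0.10) were called higher at 48 h, and SNHG11 (0.16) and SNHG9 (0.25) at 72 h. With the length trend removed SNHG32 was instead called lower at 48 h (-0.14, adjusted p = 0.0242, or 0.00155 with the block), SNHG8 was called higher (0.14, adjusted p = 0.00308), and SNHG15 (0.05) and SNHG30 (0.16) were not called.

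Within GFP high cells members moved in both directions. At 48 h against 24 h, 11 members rose and 4 fell, where 20.6% of all genes were called, 10.6% higher and 9.97% lower. At 72 h against 24 h, 3 rose (SNHG7, SNHG10 and SNHG14) and 4 fell (SNHG4, SNHG6, SNHG12 and SNHG26), where 28.9% of all genes were called, 13.9% higher and 15% lower. The called members at 72 h were 26.9% of those tested, near the share of all genes. The member median at 72 h was -0.02, against 0.01 for all genes. At 48 h SNHG22 (-0.72 ± 0.18), SNHG6 (-0.36 ± 0.04), SNHG29 (-0.17 ± 0.02) and SNHG8 (-0.15 ± 0.03) fell, while SNHG10 (0.28 ± 0.05), SNHG1 and SNHG17 (both 0.21 ± 0.03) were among the risers. SNHG5, a riser at 48 h (0.16), was not called with the length trend removed (0.11, adjusted p = 0.133). At 72 h the rise of SNHG10 (0.13 ± 0.05) lost its call without any 1 of the 6 libraries compared (0.10 to 0.15), by DESeq2 and with other size factors. The fall of SNHG12 (-0.08 ± 0.03) lost its call with the length trend removed (adjusted p = 0.0536), with library totals alone (-0.05), and without the 24 h library of set 2 (adjusted p = 0.0627) or of the unnumbered set (adjusted p = 0.066), or the 72 h library of set 2 (adjusted p = 0.0724). Without the GFP high library of the unnumbered set at 48 h, 7 members rose in place of 11. With the library set as a block, 6 members rose and 7 fell at 72 h, adding GAS5 (0.05), SNHG19 (0.13) and SNHG25 (0.30) to the risers and SNHG1 (-0.07), SNHG3 (-0.02) and SNHG20 (-0.19) to those that fell. At 48 h GAS5 (0.04) and SNHG25 (-0.37) were called under the block. SNHG14 reversed with the length trend removed, to -0.13 at 48 h and -0.08 at 72 h.

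The snoRNA genes inside the members were mostly unseen. Of the 135, 111 had 0 counts in every library. Of the 77 that share bases with an exon of a member, 75 had 0 counts and the highest count was 5, and of the 58 that share none, 36 had 0 and the highest count was 2314. The counting tool sets aside reads that overlap exons of 2 genes unless told otherwise, and its settings are unknown here. Mature snoRNAs are also short for the library protocol, so that these counts can hold precursor and intron reads. The 10 snoRNA genes that passed the filter all lie outside member exons. Of those whose levels are set beside their hosts, 3 are shown. The capitals mark the ACA that ends a box H/ACA snoRNA or the CTGA of box D. Sequences are from GENCODE release 29 and coordinates from the deposited table on hg38.

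SNORA73B, in SNHG3, chr1:28508559-28508762, plus strand: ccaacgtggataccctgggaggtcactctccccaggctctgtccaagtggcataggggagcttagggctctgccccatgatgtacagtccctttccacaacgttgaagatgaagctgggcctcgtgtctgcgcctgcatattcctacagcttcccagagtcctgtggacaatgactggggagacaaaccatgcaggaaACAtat
SNORD93, in SNHG26, chr7:22856613-22856686, plus strand: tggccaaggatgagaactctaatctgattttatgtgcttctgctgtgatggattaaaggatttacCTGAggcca
SNORD99, in SNHG12, chr1:28578749-28578822, minus strand: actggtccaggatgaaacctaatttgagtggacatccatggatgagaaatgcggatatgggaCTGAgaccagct

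SNORA73B, the U17 snoRNA that acts in the cutting of ribosomal RNA precursors, followed the direction of its host SNHG3 with larger differences. It had 16.5, 17.4 and 16.7 CPM in GFP low libraries, against 32.3, 29.7 and 31.4 CPM in GFP high libraries at 24 h (-0.88 ± 0.05, adjusted p = 2.39e-12). At 72 h it had 54.1, 53.2 and 55 CPM in GFP low libraries, against 28.8, 28.2 and 26.7 CPM in GFP high libraries (0.96 ± 0.05, adjusted p = 1.67e-12). The groups were far apart at both times, and at 48 h it rose by 0.27 ± 0.05 (adjusted p = 0.000602). SNHG3 itself was at -0.24 and 0.25 at 24 and 72 h. SNHG3 shares 5.92% of its exon bases with RCC1 on the same strand. From which transcript the reads of SNORA73B came was not tested. SNORA73B was at -0.55 at 24 h with the length trend removed.

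SNORA74A and SNORA74D, the U19 snoRNAs of SNHG4, fell at 24 h, by 1.06 ± 0.10 and 0.73 ± 0.07 on the log2 scale, where SNHG4 was at -0.07. SNORA74D was at -0.40 with the length trend removed. SNORA74A had 3.54, 2.72 and 3.45 CPM in GFP low libraries, against 7.31, 6.3 and 6.78 CPM in GFP high libraries. At 72 h neither passed (0.07 ± 0.09 and 0.12 ± 0.06), while SNHG4 rose by 0.11. SNORA74D also fell at 48 h (-0.20 ± 0.06, adjusted p = 0.0184), a call lost by DESeq2 (adjusted p = 0.058), with library totals alone (-0.16), without the filter on low counts (-0.19), with the length trend removed (-0.07), and without the GFP high library of set 1 (-0.14) or the GFP low library of set 1 or of set 2 (both -0.18). SNORD99, in SNHG12, fell at 48 h (-0.66 ± 0.16, adjusted p = 0.00468), the time at which SNHG12 had its lowest difference, and the call was lost with the length trend removed (-0.48, adjusted p = 0.0545). It had 2.7, 1.77 and 2.02 CPM in GFP low libraries, against 3.85, 3.22 and 3.25 CPM in GFP high libraries. At 72 h, when SNHG12 rose, SNORD99 did not pass in the main fit. It was called lower at 72 h with the length trend removed (-0.58, adjusted p = 0.0121) and without the GFP high library of set 1 (-0.47, adjusted p = 0.0309). SNORD93, in SNHG26, rose at 72 h (0.66 ± 0.14, adjusted p = 0.00104), with 4.34, 4.36 and 3.71 CPM in GFP low libraries, against 2.69, 2.5 and 2.64 CPM in GFP high libraries, and was at 0.42 with the length trend removed (adjusted p = 0.0137). SNORD116-17, in SNHG14, and SNORD104, in SNHG25, fell at 24 h (-0.67 ± 0.21 and -0.29 ± 0.12). SNORD116-17 was not called with the length trend removed (-0.34, adjusted p = 0.173), nor when the set 2 library of GFP low cells was left out (-0.46, adjusted p = 0.0989). SNORD104 turned to 0.05 with the length trend removed (adjusted p = 0.759), and was not called by DESeq2 (adjusted p = 0.0588), nor with library totals alone (-0.16), nor without the GFP high library of the unnumbered set or of set 2 (both -0.24) or the GFP low library of set 1 (-0.14). SNORA71B, SNORD1B and SNORD109B did not pass at any time, but SNORA71B was called higher at 24 h with the length trend removed (0.33, adjusted p = 0.00711). SNORD1B was called lower at 48 h in the blocked fit (-0.78, adjusted p = 0.023) or without the filter on low counts (-0.76, adjusted p = 0.0337), and at 24 h without the GFP low library of set 1 (-1.04, adjusted p = 0.0319). The block also called SNORD93 lower at 24 h (-0.30, adjusted p = 0.0324), SNORA74A and SNORD104 lower at 48 h (-0.25, adjusted p = 0.0198, and -0.34, adjusted p = 0.0068), and SNORD99 lower and SNORD116-17 higher at 72 h (-0.35, adjusted p = 0.0112, and 0.47, adjusted p = 0.0472). A difference between a snoRNA and its host was not tested. SNHG4 shares 14% of its exon bases with a MATR3 entry on the same strand, and the source of the SNORA74A and SNORA74D reads was not tested.

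**Figure D4:**
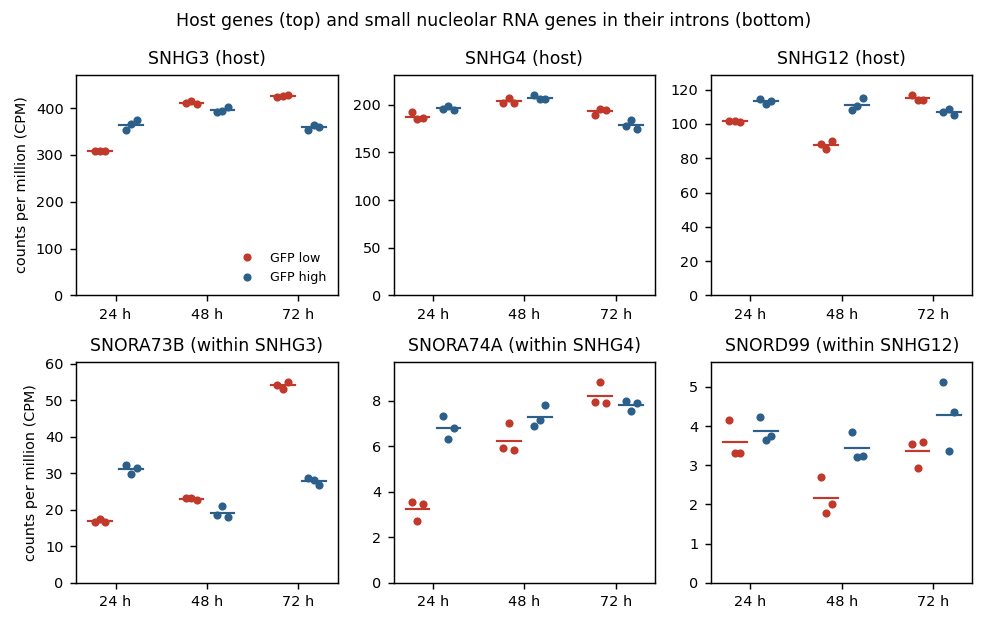
CPM (vertical axes, from 0) in each library by time for 3 host genes (top) and a snoRNA gene in an intron of each (bottom), with GFP low in red left of GFP high in blue and lines at the means of 3 libraries. SNORA73B in GFP low cells lay at 16.5 to 17.4 CPM at 24 h and at 53.2 to 55 CPM at 72 h.

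Genes around the pathway were read from the same fit. In the main fit 28.5% of all tested genes fell and 29.3% rose at 24 h. At 48 h 13.2% fell and 10.6% rose, and at 72 h 13.5% fell and 12.9% rose. The list counts of the main fit below stand beside these shares. Shares of all genes under the block are not given, so blocked list counts cannot be set against the main shares. All genes called moved from 3387 to 5398 under the block at 48 h against 24 h in GFP high cells. Of the 79 cytosolic ribosomal protein genes, all fell at 24 h and none rose, with a median log2 fold change of -0.71; RPS3A (-1.55 ± 0.02) and RPS18 (-1.22 ± 0.01) were among them. At 48 h the median was -0.01, with 2 risers and 14 fallen, and at 72 h it was 0.01, with 15 of each. In the blocked fit there were 21 risers and 32 fallen at 48 h, and 37 risers and 27 fallen at 72 h. These blocked counts have no share of all genes beside them. Thus at 48 h the ribosomal protein median stood near 0, as did the member median (-0.05). GAS5, SNHG1 and SNHG5 were still lower at that time, as were the 14 ribosomal protein genes. Of 14 tested translation factors with a TOP start, 13 fell at 24 h (median -0.43), among them EEF1A1 (-0.67 ± 0.01), which brings aminoacyl-tRNA to the ribosome, and EEF1B2 (-1.07 ± 0.02), its exchange factor. With the length trend removed the medians at 24 h were -0.54 for ribosomal proteins and -0.57 for these factors. The other noncoding hosts, the snoRNP proteins and the exon junction complex had no riser at 24 h either. In these and the 2 lists above, 0 genes were higher at an unadjusted p under 0.05 in edgeR and 0 by DESeq2. The same held for the T cell, myeloid and erythroid markers and the snoRNA genes within members.

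Noncoding hosts outside the SNHG names were lower at 24 h as well. All 3 tested fell at 24 h: DANCR by 0.84 ± 0.02, ZFAS1 by 0.40 ± 0.03 and EPB41L4A-AS1 by 0.23 ± 0.03 on the log2 scale. EPB41L4A-AS1 was at -0.13 with the length trend removed. At 48 h ZFAS1 fell (-0.23 ± 0.03) and the others did not pass, although in the blocked fit DANCR (-0.05, adjusted p = 0.0405) and EPB41L4A-AS1 (-0.08, adjusted p = 0.0279) were called lower as well. At 72 h ZFAS1 (0.27 ± 0.03) and EPB41L4A-AS1 (0.23 ± 0.03) rose. Of 159 tested protein-coding snoRNA hosts, 87 fell and 45 rose at 24 h (median -0.12), and with ribosomal proteins left out 59 fell and 45 rose of 131 (median -0.03). VPS13D (0.68 ± 0.02) and EP400 (0.58 ± 0.02) rose, by 0.43 and 0.35 with the length trend removed, and HSPA8, a chaperone, and ODC1, the enzyme of polyamine synthesis, fell (-0.77 ± 0.01 and -0.88 ± 0.02). At 72 h 23 of the 159 rose and 39 fell (median -0.01), where 12.9% of all genes rose and 13.5% fell. Among the 26 tested members, GAS5 included, there were 17 risers and 0 fallen. The block gave 44 risers and 59 fallen of the 159 at 72 h, with no share of all genes beside them.

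The proteins that bind snoRNAs were lower at 24 h. Of 8 core box C/D and H/ACA proteins 6 fell and none rose (median -0.41), with NHP2 at -0.88 ± 0.04, SNU13 at -0.64 ± 0.03 and the methyltransferase FBL at -0.55 ± 0.03, but 2 rose with the length trend removed (median -0.24), where NHP2 was at -0.58 and FBL at -0.30. At 72 h 2 fell and none rose (median -0.03). Of 10 assembly factors 6 fell and 1 rose at 24 h (median -0.24). ZNHIT3 (-0.62 ± 0.05) and RUVBL1 (-0.33 ± 0.02) were among those that fell.

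Factors of nonsense-mediated decay went the other way. Of 12, 10 rose and 1 fell at 24 h (median 0.23), led by the kinase SMG1 (0.52 ± 0.02) and by UPF2 (0.36 ± 0.03), and 8 rose with the length trend removed (median 0.16), where SMG1 was at 0.25. At 48 h 1 rose and 4 fell, and at 72 h 1 rose and 1 fell. With the library set as a block the counts were 1 and 7 at 48 h and 4 and 1 at 72 h, with no share of all genes beside them. Of the 5 exon junction complex genes, 4 fell at 24 h, among them EIF4A3 (-0.54 ± 0.03) and MAGOH (-0.50 ± 0.05, or -0.20 with the length trend removed). Of 7 mRNAs known as targets of this decay, 5 fell and 1, MAP3K14, rose (0.49 ± 0.05) at 24 h. ATF4 was among those that fell (-0.23 ± 0.02), but was at -0.02 and not called with the length trend removed (adjusted p = 0.292), where 2 fell and 1 rose. Of 10 regulators of TOP mRNAs and of mTORC1, the growth-sensing kinase complex, 7 rose and 2 fell at 24 h (median 0.19), with MTOR at 0.47 ± 0.02 and EIF4EBP2 at -0.22 ± 0.02, while 4 rose and 3 fell with the length trend removed (median 0.05), where MTOR was at 0.28.

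**Figure D5:**
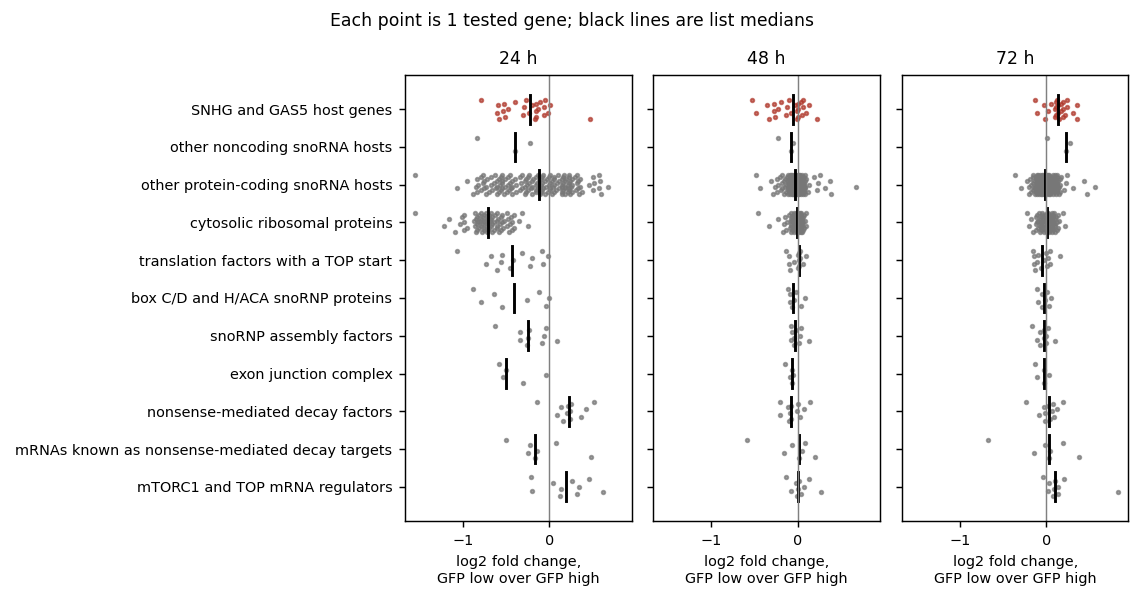
Log2 fold change of GFP low over GFP high (horizontal axis) for each tested gene of 11 groups at 24, 48 and 72 h, with 1 point per gene and black lines at group medians. The SNHG and GAS5 median lay at -0.22, -0.05 and 0.13 at 24, 48 and 72 h, and the ribosomal protein median at -0.71, -0.01 and 0.01.

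Abundant noncoding RNAs, read as a sign of RNA quality, differed too. Of 7 abundant noncoding RNAs 4 had 0 counts. RN7SL1 had log2 fold changes of -0.80 ± 0.13, 1.00 ± 0.13 and 1.32 ± 0.13 at 24, 48 and 72 h, NEAT1 of -0.18 ± 0.02, -0.15 ± 0.02 and 1.07 ± 0.02, and MALAT1 of 0.40 ± 0.02, -0.23 ± 0.02 and 0.36 ± 0.02. RN7SL1 was at -0.46 and NEAT1 at -0.44 at 24 h with the length trend removed. The list summed to 7684 to 7835 CPM in GFP low and 4141 to 4521 CPM in GFP high libraries at 72 h. Its part in the host gene results was not tested.

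Several members share exon bases with other genes. SNHG3 shares 5.92% of its exon bases with RCC1 on the same strand, a gene with up to 18333 counts, and SNHG20 shares 7.56% with SEC14L1, with up to 5506 counts. SNHG21 shares 72.9% with a transcript on the same strand with up to 156 counts. On the opposite strand SNHG10 shares 5.54% with GLRX5, with up to 5644 counts. The strand setting of the counting is unknown here, so reads of these pairs may be split or set aside, and the levels of these 4 members are uncertain to that extent. The other opposite-strand partners of more than 20% of exon bases, those of SNHG6, SNHG7, SNHG8, SNHG16 and SNHG21, had at most 29 counts.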

How the data were processed

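The 18 Raji libraries were prepared with KAPA RNA HyperPrep chemistry after ribosomal RNA depletion (RiboErase), per the labels' protocols. The authors deposited raw counts: whole numbers over all exons of a gene, with no normalization, in the column layout of featureCounts, per the file headers. The submitters' processing notes name FastQC, STAR, featureCounts, Subread, R 4.2.1 and hg38, with no role stated. Annotation, strand setting and treatment of shared reads: not given in the sources used here. Columns name the group and a library set (unnumbered, 1 or 2), not the sample. Of 60710 lines, 3 of a broken entry were left out.

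The test was that of edgeR 4.0.16 under R 4.3.3, with filterByExpr, TMM, 6 group means (12 residual degrees of freedom), quasi-likelihood F tests, 2-sided, adjusted over all tested genes. The script was tested on simulated data. Libraries of a group differed by more than sampling noise (median chi-square 1.46 to 2.75 times that expected) and were kept apart. Library sets pair the libraries, by the columns' names and the data: deviations from group means correlated at 0.103 to 0.31 in 45 same-set pairs, and at a median of -0.11 in 90 others, and 18 of 18 libraries correlated best with their own set. Alternatives were RLE size factors, library totals alone, no filter, the set as a block, a removed length trend, both together, DESeq2 1.42.0 and leaving out each library.

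Every member is named; of each gene list up to 3 genes in each direction by adjusted p at 24 h could be named. snoRNAs were matched to hosts by span and strand. Members and lists were chosen with earlier results of these data known. Promoters are from RefSeq and other sequences from GENCODE. Some items are not reported here.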

Additional observations from a re-analysis of the deposited data

Results flagged for a closer look

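The difference between GFP low and GFP high cells changed between times in most host RNAs, by the test of that change in the edgeR fit. From 24 to 48 h it rose in GAS5 (0.23), SNHG3 (0.30), SNHG6 (0.52), SNHG7 (0.25), SNHG8 (0.22), SNHG10 (0.48), SNHG16 (0.35), SNHG17 (0.15), SNHG19 (0.43), SNHG29 (0.88) and SNHG30 (0.33), and it fell in SNHG12 (-0.18) and SNHG31 (-0.73), all in log2. SNHG30 lost this call without the GFP high library of the unnumbered set at 24 h (0.27) or the GFP low library of set 1 at 24 h (0.26), and SNHG17 with library totals alone (0.05). SNHG30 also lost it with the length trend removed (0.03, adjusted p = 0.889) and with library totals alone (0.23, adjusted p = 0.0862), and SNHG19 with the length trend removed (0.15, adjusted p = 0.294). With that trend removed the change was 0.22 in SNHG6 and 0.34 in SNHG17.

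From 24 to 72 h it rose in GAS5 (0.61), SNHG1 (0.63), SNHG3 (0.49), SNHG4 (0.18), SNHG5 (0.58), SNHG6 (0.70), SNHG7 (0.37), SNHG8 (0.35), SNHG10 (0.70), SNHG12 (0.27), SNHG14 (0.15), SNHG15 (0.52), SNHG16 (0.45), SNHG17 (0.38), SNHG19 (0.66), SNHG20 (0.36), SNHG25 (0.66), SNHG26 (0.24), SNHG29 (0.85), SNHG30 (0.50) and SNHG32 (0.32). It fell in SNHG31 (-0.60). With library totals alone SNHG4, SNHG14, SNHG20, SNHG26 and SNHG32 were no longer called (0.04, 0.01, 0.22, 0.10 and 0.18), and with the length trend removed SNHG19, SNHG25, SNHG30 and SNHG32 were not (0.21, 0.20, 0.21 and 0.05). With the length trend removed the change was 0.76 in SNHG14 and 0.38 in SNHG6.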

How the results depend on the processing

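The paired library sets, fitted as a block, removed no call of a member in any of the 9 comparisons and added 22. No share of all genes stands beside these 22. Among the named list genes the block added 23 calls and removed 2 over the 3 times. Very small differences passed under it, such as HSPA8 at 48 h (-0.02, adjusted p = 7.34e-09), while EEF1A1 at 0.10 lost its call at 48 h (adjusted p = 0.721). The block moved the members higher at 48 h to 5, those higher and lower at 72 h against 24 h in GFP high cells to 6 and 7, and all genes called at 48 h against 24 h in GFP high cells to 5398, and it changed no other count of members or of all genes by over 1.5 times. With block and length trend together the last count was 5131. That setting gave 2 members higher at 24 h, 6 higher at 48 h, 5 with a falling difference from 24 to 48 h, 6 lower at 48 h in GFP low cells, and 6 higher and 8 lower at 72 h in GFP high cells. The length trend alone gave 2 higher at 24 h and 2 at 48 h, and RLE and DESeq2 2 at 48 h. Library totals alone gave 3 higher and 13 lower at 24 h, 6 higher at 48 h, 5 with a falling difference to 48 h, 3 lower at 72 h in GFP low cells and 6 higher at 72 h in GFP high cells.

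Leaving out 1 library gave 16 to 20 members lower at 24 h, 1 to 2 higher at 48 h, 16 to 18 higher at 72 h and 7 to 10 higher at 48 h in GFP high cells. Without the length trend the 24 h values turned in CD79A (0.07), SNHG19 (0.04), SNHG32 (0.15) and SNORD104 (0.05), or 0.07, 0.05, 0.15 and 0.05 with the block. So did SNHG6 at 48 h in GFP low cells (-0.10, or -0.11), SNHG32 at 72 h in GFP low cells (-0.02, or -0.03), and SNHG14 in GFP high cells at 48 h (-0.13 in both) and 72 h (-0.08 in both). With library totals alone SNHG4 (0.06) and SNHG26 (0.03) turned at 24 h. The cause was not tested. Members under 10 CPM, such as SNHG9, SNHG21 and SNHG22, had the largest SE, and their differences may not be detectable at this depth.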
